A study of Zea mays with 18 samples.

Results

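Line A, a maize line in which the phytoglobin gene ZmPgb1.1 is down-regulated, was compared with wild type (WT) in air, before any hypoxia. The comparison used 6 of the 18 libraries of the series: A_0h replicates 1 to 3, labelled Pgb1.1A, 0h and normoxic, and WT_0h replicates 1 to 3, labelled WT, 0h and normoxic. All 6 were made from total RNA of quiescent centres of roots of 5-day-old Zea mays seedlings, held in Murashige and Skoog solution under air as the labels describe normoxia, with the root cap removed before isolation. The other 12 libraries are line A and WT after 12 h at 4% oxygen (A_12h, WT_12h) and a line overexpressing the same gene at 0 h and 12 h (S_0h, S_12h), again with 3 libraries each. The labels do not give the promoter, the number of transformation events or the number of pooled seedlings, and they do not say whether libraries of the same group are biological repeats. The p-values therefore cover the library-to-library spread only, and that spread may be technical.

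The genes described are the abundant ones that separated the groups both with all libraries and without A_0h replicate 3 and WT_0h replicate 2. Of 20945 gene IDs tested, 12550 averaged at least 10 CPM (counts per 1000000 TMM-scaled counts of a library) in the group where they were higher. Among these, 452 had all 3 A_0h libraries on 1 side of all 3 WT_0h libraries and an adjusted p under 0.05 in the same direction in both versions. A total of 162 were higher and 290 lower in A_0h. The values that chose these genes are given below as a description. No ID could be paired with a gene name (0 of 28724 IDs matched the reference table, which belongs to another assembly), so the genes carry no function here, the level of ZmPgb1.1 itself and the defining markers of the quiescent centre were not checked, and at most 2 IDs per direction are named.

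Phytoglobins are plant hemoglobins that bind oxygen very tightly and remove nitric oxide, a gas that acts as a signal in plant cells and accumulates when oxygen is short. The quiescent centre is a small group of slowly dividing cells near the tip of the root that keeps the surrounding stem cells from differentiating, and its activity depends on local levels of auxin. Plants with less phytoglobin accumulate more nitric oxide under hypoxia.

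Of the 6 libraries, 2 stood apart from the group they are labelled with, and in all 6 labelled groups 1 library had both nearest libraries in another group. This library is called below the library of its group nearest to another group. Other libraries, WT_0h replicates 1 and 3 among them, had only the nearest 1 in another group. Whether labels were exchanged between libraries was not tested. Groups are used as labelled, so each group mean given here, at 12 h as well, rests on labels that 1 of its 3 libraries does not match by resemblance. Across genes, A_0h replicates 1 and 2 correlated at 0.9975 (Spearman, log2 CPM), but replicate 3 correlated with them at only 0.9497 and 0.9495, and its nearest libraries were A_12h replicates 2 and 1, at 0.998 and 0.9979. WT_0h replicates 1 and 3 correlated at 0.9964, replicate 2 correlated with them at 0.9833 and 0.9828, and its nearest libraries were WT_12h replicates 2 and 1, at 0.9976 and 0.9972. The 4 remaining libraries also had a near neighbour outside their group. S_12h replicate 3 correlated with A_0h replicates 1 and 2 at 0.9972 and 0.9971. S_0h replicate 3 correlated with WT_0h replicates 1 and 3 at 0.9978 and 0.9974, above the 0.9964 of these 2 with each other. At 12 h, WT_12h replicate 3 was nearest to S_0h replicates 1 and 2, and A_12h replicate 3 to S_12h replicates 1 and 2. The 6 libraries held 57052158 to 80104447 counts and 21448 to 22265 genes with at least 1 count, and 3 counts, the level under which a gene was read as off, were 0.0375 to 0.0526 CPM. This floor covers counting error only.

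With all libraries, line A differed from WT at 0 h in 696 genes, 314 higher (1.5% of the genes tested) and 382 lower (1.82%) in A_0h, 3.32% in all (edgeR quasi-likelihood test, Benjamini-Hochberg adjusted p under 0.05). Without A_0h replicate 3 and WT_0h replicate 2 it differed in 2038 of 21270 genes (9.58%), 768 higher (3.61%) and 1270 lower (5.97%). Which direction held more genes depended on the test: DESeq2 called 1294 higher and 1034 lower with all libraries, and limma-voom called 1672 higher and 1253 lower without the 2. A total of 569 genes of any level carried the same call in both. Leaving out those libraries was a choice made after their values were seen and uses a part of the same data, so the second version is no separate support for the first. Of the 12550 abundant genes, 3541 (28.2%) had groups that did not overlap, 1575 with A_0h above WT_0h and 1966 below, and 550 (4.38%) were called with all libraries. Of those 550, 1 had overlapping groups and 97 of the other 549 were not called without the 2 libraries, which left the 452 (3.6%). Single libraries moved this number: it was 1301 without A_0h replicate 3 and 266 without WT_0h replicate 2. Leaving out any other library of these groups left 1 library in a group of the second version, so no number is given. The 696 calls of the first version became 169 and 172 without A_0h replicate 1 or 2. They became 267 and 159 without WT_0h replicate 1 or 3. With only A_0h and WT_0h in the fit, the 452 became 28, with 18 higher and 10 lower, and with DESeq2 they became 1021. At the threshold, the member with the lowest level averaged 10.02 CPM in its higher group, and the highest gene that met every other criterion averaged 9.95 CPM. In all, 113 genes met the other criteria below 10 CPM, 87 higher and 26 lower in A_0h.

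The 162 genes higher in A_0h had log2 fold changes with a median of 0.70, and of 0.78 without the 2 libraries. In 161 of them the values ran from 0.26 to 6.66, and from 0.29 to 7.85 without the 2 libraries. The remaining gene, Zm00001d042684.RefGen_V4, singled out after its values were seen, had 4, 0 and 0 counts in WT_0h replicates 1 to 3 and 50.6, 44.9 and 0.114 CPM in A_0h replicates 1 to 3, so its fitted log2 fold change of 10.63 depends on the prior count and rests on A_0h replicates 1 and 2. By comparison, the median size of the log2 change over all abundant genes was 0.16 with all libraries and 0.19 without the 2. A total of 52 rose at least 2-fold in both versions, 19 at least 4-fold and 9 at least 8-fold. The change was larger without the 2 libraries in 123 of the 162 (75.9%). Their nearest libraries were close: the gap between the lowest A_0h and the highest WT_0h library was 1.26-fold in the median gene and 1.02-fold in the smallest case. With the exception of Zm00001d042684.RefGen_V4, each had at least 10 counts over the 3 WT_0h libraries.

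Zm00001d044874.RefGen_V4 was the most abundant ID to rise at least 2-fold in both versions. It measured 304, 299.3 and 76.6 CPM in A_0h replicates 1 to 3 and 4.87, 11.2 and 5.10 CPM in WT_0h replicates 1 to 3. All A_0h libraries lay well above WT_0h, but replicate 3 stood at about the level of the 12 h libraries of its line, which held 75.3, 79.1 and 79.1 CPM. The means were 226.6 ± 130.0 against 7.05 ± 3.59 CPM (SD, n = 3), a 32.1-fold ratio, with a log2 fold change of 5.0 (SE 0.75, edgeR adjusted p = 0.00483). Without the 2 libraries the log2 fold change was 5.92 (SE 0.83, adjusted p = 0.00436). It was no longer called when the fit held A_0h and WT_0h alone (adjusted p = 0.0642), and was called under each of the other settings tried.

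Zm00001d034771.RefGen_V4 measured 159.7, 164.3 and 33.5 CPM in the A_0h libraries and 28.5, 26.7 and 29.7 CPM in the WT_0h libraries. Replicates 1 and 2 of A_0h were several times above WT, whereas replicate 3 cleared the highest WT_0h library by a small step. The means were 119.2 ± 74.2 and 28.3 ± 1.5 CPM (SD, n = 3), a 4.21-fold ratio (log2 fold change 2.07, SE 0.53, edgeR adjusted p = 0.048). Its log2 fold change was 2.48 without the 2 libraries (SE 0.51, adjusted p = 0.0131). The call ended under limma-voom (adjusted p = 0.1), with no filter on low counts (0.0631), with A_0h and WT_0h alone in the fit (0.151), and without any single library of the 6 other than A_0h replicate 3 (0.134 to 0.167).

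**Figure D1:**
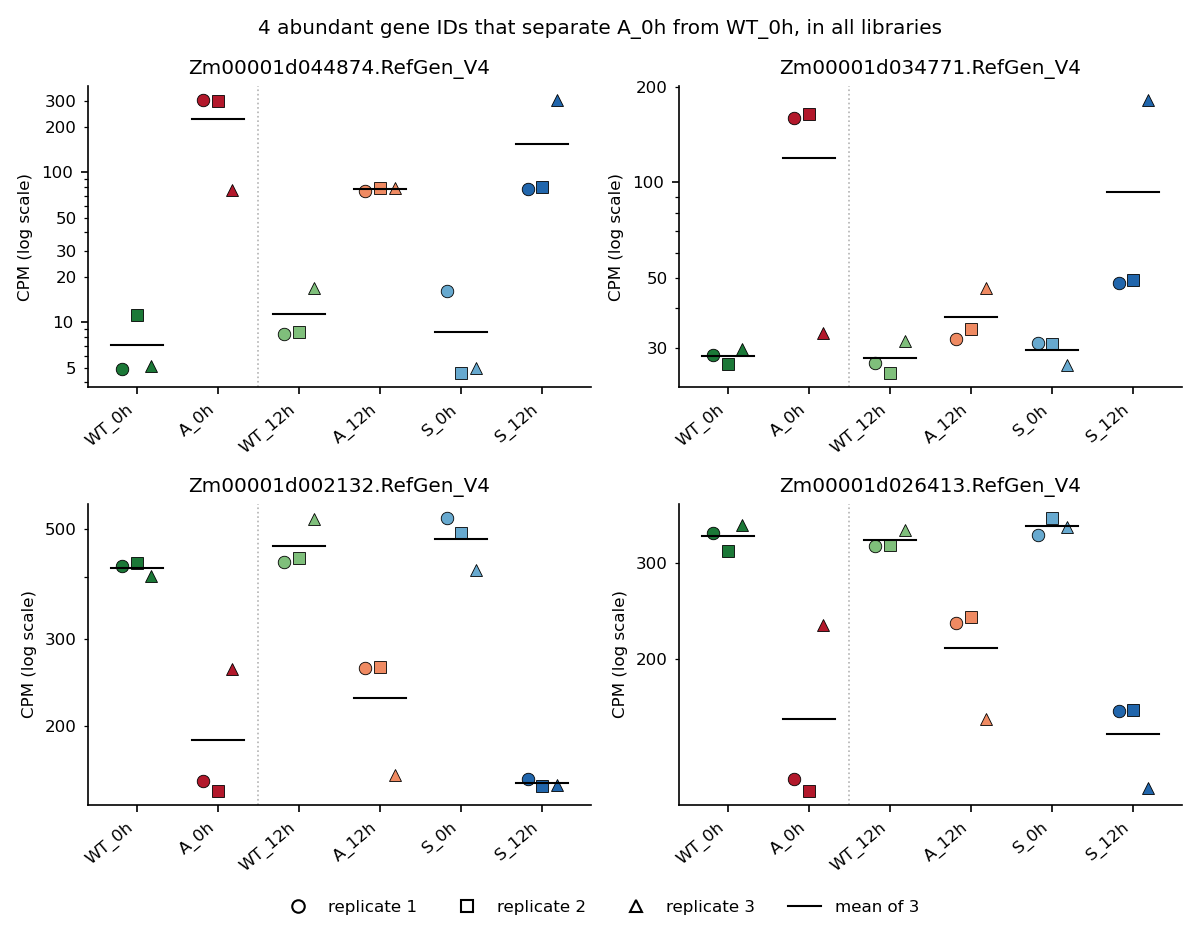
CPM on a log axis of the 4 named IDs in each of the 18 libraries, by labelled group, with 1 symbol per replicate number and a line at the mean of 3. In each panel the A_0h libraries lie on 1 side of the WT_0h libraries, A_0h replicate 3 lies nearer to WT_0h than A_0h replicates 1 and 2, and S_12h replicate 3 lies beside those 2.

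The 290 genes lower in A_0h changed less. Their log2 fold changes ran from -0.22 to -1.88 with a median of -0.50, and without the 2 libraries from -0.22 to -2.67 with a median of -0.56. Only 20 of the 290 were at least 2-fold lower in both versions and 0 were at least 4-fold lower in both. The change was larger without the 2 libraries in 228 (78.6%). The gap between the highest A_0h and the lowest WT_0h library was 1.2-fold in the median gene and 1.04-fold in the smallest case.

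Zm00001d002132.RefGen_V4 was the most abundant ID to fall at least 2-fold in both versions. It measured 154.5, 147.4 and 259.8 CPM in A_0h replicates 1 to 3 and 420.6, 426.2 and 401.6 CPM in WT_0h replicates 1 to 3. The WT_0h libraries were close to each other, and A_0h replicate 3 lay between them and the other A_0h libraries. The means were 187.2 ± 62.9 and 416.1 ± 12.9 CPM (SD, n = 3), a 2.22-fold ratio (log2 fold change -1.15, SE 0.21, edgeR adjusted p = 0.00998), and the log2 fold change was -1.44 without the 2 libraries (SE 0.20, adjusted p = 0.00436). The call ended with A_0h and WT_0h alone in the fit (adjusted p = 0.0981), without A_0h replicate 1 (0.06) and without A_0h replicate 2 (0.0568).

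Zm00001d026413.RefGen_V4 showed the same order, with 120.4, 114.7 and 230.3 CPM in A_0h and 339.8, 315.6 and 352.2 CPM in WT_0h. Again replicate 3 of A_0h was the library nearest to WT_0h, and the groups did not overlap. The means were 155.1 ± 65.2 and 335.9 ± 18.6 CPM (SD, n = 3), a 2.17-fold ratio (log2 fold change -1.11, SE 0.23, edgeR adjusted p = 0.0188; without the 2 libraries -1.56, SE 0.19, adjusted p = 0.00328). The call ended with A_0h and WT_0h alone in the fit (adjusted p = 0.136) and without A_0h replicate 1 (0.098), A_0h replicate 2 (0.0949), WT_0h replicate 1 (0.0575) or WT_0h replicate 3 (0.08).

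**Figure D2:**
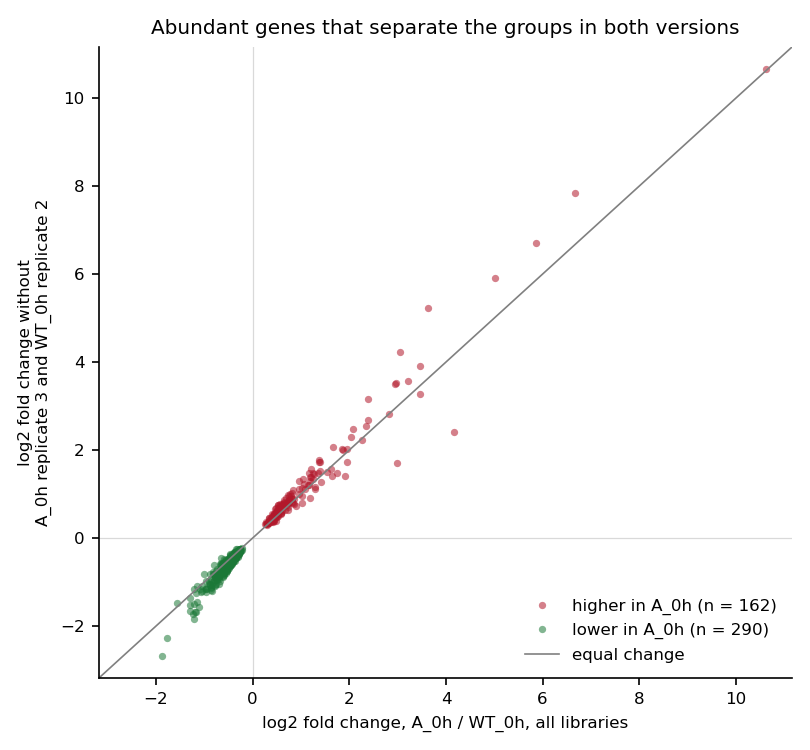
Log2 fold change of A_0h over WT_0h for the 452 abundant genes that separated the groups, with all libraries on the x axis and without A_0h replicate 3 and WT_0h replicate 2 on the y axis; each point is a gene and the line marks equal change. The higher genes reach a log2 fold change of 6.66 with all libraries, apart from 1 gene at a fitted 10.63 whose WT_0h level rests on 4 counts, and the 290 lower genes reach -1.88.

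The genes that were lower in A_0h were the more abundant ones. The higher group averaged a median of 64.5 CPM for the 290 lower genes and 29.2 CPM for the 162 higher genes. Among the 2380 genes at 100 CPM or more, 102 (4.29%) were lower and 10 (0.42%) higher in A_0h. Among the 5241 genes at 10 to 30 CPM the numbers were 73 (1.39%) and 85 (1.62%), and among the 4929 genes at 30 to 100 CPM they were 115 (2.33%) and 67 (1.36%). Of the 100 most abundant genes in the 6 libraries, 1 was a member, and it was higher in A_0h. None of the 12 tested IDs that begin with GRMZM5G was a member. With 452 members among 20945 tested IDs, 0 in 12 is no result about these IDs.

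Summed over genes, the 162 higher members took 0.872%, 0.863% and 0.728% of the scaled counts in A_0h replicates 1 to 3, against 0.462%, 0.463% and 0.455% in WT_0h replicates 1 to 3. The 290 lower members took 2.40%, 2.39% and 2.72% in A_0h and 3.40%, 3.48% and 3.53% in WT_0h. These sums restate the choice of members and carry no test. A_0h replicate 3 was the A_0h library nearest to WT_0h in both sums. In bulk libraries such as these, a change in the number of cells of a type and a change in RNA per cell cannot be told apart.

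**Figure D3:**
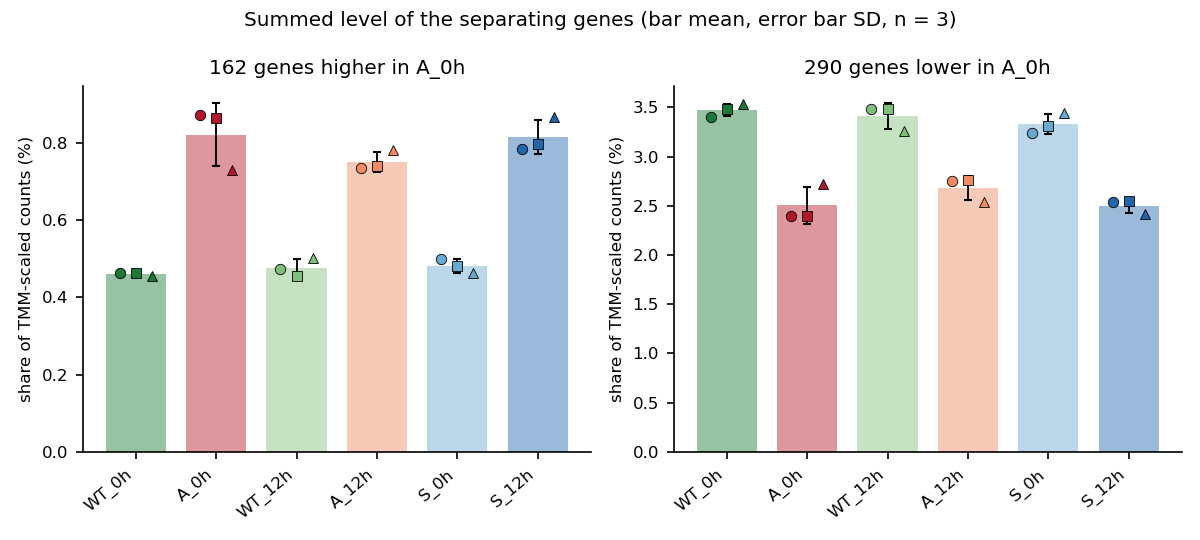
Share of the TMM-scaled counts, in percent, taken by the 162 genes higher in A_0h (left) and the 290 genes lower in A_0h (right), in each labelled group; bars are means of 3 libraries, error bars SD, and symbols single libraries. The higher genes take 0.728 to 0.872% in A_0h and 0.455 to 0.463% in WT_0h, and the lower genes 2.39 to 2.72% and 3.40 to 3.53%.

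Members differed in how far A_0h replicate 3 followed the other A_0h libraries. Among the 162 higher genes it lay below both in 117 and its median ratio to the mean of replicates 1 and 2 was 0.855. It was within 1.2-fold of that mean in 80 genes and at least 1.5-fold from it in the direction of WT_0h in 37. Among the 52 genes at least 2-fold higher in both versions these numbers were 8 and 31. Among the other 110 they were 72 and 6. Among the 290 lower genes it lay above both other A_0h libraries in 218, with a median ratio of 1.14. It was within 1.2-fold of their mean in 186 and at least 1.5-fold from it in the direction of WT_0h in 24. Among the 20 genes at least 2-fold lower in both versions these numbers were 4 and 11. Among the other 270 they were 182 and 13. Since every member had to keep replicate 3 beyond the WT_0h libraries, genes with a small change left it little room to move toward WT_0h. WT_0h replicate 2 was the WT_0h library nearest to A_0h in 69 of the 162 higher and 103 of the 290 lower genes.

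A further 23 genes were on in A_0h replicates 1 and 2 and off in WT_0h, but none of them was a member, because A_0h replicate 3 did not share the signal. Each held at least 10 CPM in both replicates (10.6 to 74.1 CPM, median 18.8) and 3 or fewer counts in every WT_0h library, with 0 counts in all of them for 15 genes. In A_0h replicate 3 all 23 had 3 or fewer counts, and 22 had 0. All 23 also had 3 or fewer counts in every A_12h library. Only S_12h replicate 3 among the other 15 libraries held 10 CPM or more of any of them: 22 of the 23 did so there, and the lowest held 9.76 CPM. In the opposite direction, no gene held at least 10 CPM in every WT_0h library and 3 or fewer counts in A_0h replicates 1 and 2. With all libraries edgeR called 0 of the 23, and no gene was on by these limits in all 3 A_0h libraries and off in all 3 WT_0h libraries.

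Whether the difference between line A and WT belongs to 0 h was tested as the difference of 2 contrasts, A_12h minus WT_12h and A_0h minus WT_0h, which share no library. No gene passed the threshold by edgeR, with all libraries (0 of 20945, lowest adjusted p = 0.689, 1089 genes or 5.2% at an unadjusted p under 0.05) or without the 2 libraries (0 of 21270, lowest adjusted p = 0.072). DESeq2 called 16 and limma-voom 0. Among the members, 27 of the 162 higher and 27 of the 290 lower genes had an unadjusted p under 0.05. Leaving out of every group the library nearest to another group, picked by resemblance in these same data, gave 10055 called genes (47.8% of those tested). Of the members, 87 of 162 (53.7%) and 149 of 290 (51.4%) were then called, a share near that of all genes. The 0 h values that chose the members enter this contrast. None of these member counts therefore tests whether their difference belongs to 0 h.

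At 12 h the members moved in the direction they had at 0 h. Between A_12h and WT_12h, 160 of the 162 higher genes had a log2 fold change above 0, 138 had no overlap between the groups and 78 were called higher by edgeR, against 51.4%, 19.2% and 3.88% of all genes tested. Of the 290 lower genes, 289 were below 0, 251 had no overlap and 135 were called lower, against 47.8%, 17.5% and 2.59% of all genes. The opposite direction was called for 0 members. Without the library of each group nearest to another group, 133 of the 162 were called higher and 252 of the 290 lower at 12 h, against 25.8% and 21.2% of all genes. Over all abundant genes whose groups did not overlap at 0 h the direction was the same at both times in 3268 of 3541 (92.3%). The median log2 fold change was 0.46 at 12 h against 0.70 at 0 h for the higher genes, and -0.34 against -0.50 for the lower genes. The members were chosen on their 0 h values, so the smaller size at 12 h is no result. A_0h replicate 3 and WT_0h replicate 2, which every member had to place on the right side, are the libraries that correlated best with A_12h and WT_12h, and their part in these shares was not tested.

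For the named IDs, Zm00001d044874.RefGen_V4 was also higher at 12 h, at 77.8 ± 2.19 CPM in A_12h and 11.3 ± 4.85 CPM in WT_12h (SD, n = 3; log2 fold change 2.78, SE 0.68, edgeR adjusted p = 0.0295), and the difference from 0 h was -2.23 (SE 0.92, adjusted p = 0.689; -2.74, adjusted p = 0.0159, without the library of each group nearest to another group). Zm00001d034771.RefGen_V4 stood at 37.6 ± 7.75 and 27.8 ± 3.46 CPM at 12 h, which did not pass the edgeR test (log2 fold change 0.44, SE 0.52, adjusted p = 0.65), and the difference from 0 h was -1.64 (SE 0.73, adjusted p = 0.689; -2.12, adjusted p = 1.13e-14, without those libraries). Zm00001d002132.RefGen_V4 was again lower in line A, with 227.7 ± 59.5 CPM in A_12h and 462.8 ± 52.6 CPM in WT_12h (SD, n = 3; log2 fold change -1.02, SE 0.21, edgeR adjusted p = 0.0165). Its difference from 0 h was 0.13 (SE 0.29, edgeR adjusted p = 0.877; 0.72, adjusted p = 2.62e-09, without those libraries). Zm00001d026413.RefGen_V4 measured 209.0 ± 46.4 and 329.8 ± 12.6 CPM, and its log2 fold change of -0.66 did not pass the edgeR test (SE 0.23, adjusted p = 0.0897). Its difference from 0 h was 0.46 (SE 0.32, edgeR adjusted p = 0.69; 1.11, adjusted p = 2.81e-12, without those libraries). By edgeR, all 4 differences thus missed the threshold with all libraries and passed it when those libraries were left out. Those libraries were picked by their resemblance in these same data, and 2 libraries per group remain without them. In that setting 47.8% of all genes tested were called. Its p-values therefore do not test whether the difference of these IDs belongs to 0 h. These IDs were chosen on their 0 h values. A_12h replicate 3 lay apart from A_12h replicates 1 and 2 for both lower IDs, with 158.9 against 261.3 and 262.8 CPM for the former and 155.6 against 232.6 and 238.8 CPM for the latter.

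To place all members in all libraries, each level was set on a scale from 0, the WT_0h mean, to 1, the A_0h mean, in log2 CPM. By construction WT_0h medians lay near 0 (-0.052 to 0.06), and in A_0h replicates 1 and 2 the medians were 1.12 to 1.14, with replicate 3 at 0.774 for the higher and 0.722 for the lower genes. A_12h replicates 1 and 2, at 0.764 and 0.773 for the higher and 0.68 and 0.685 for the lower genes, lay beside A_0h replicate 3. A_12h replicate 3 lay further toward A_0h replicates 1 and 2, at 0.855 for the higher and 0.858 for the lower genes. WT_12h and S_0h medians stayed between -0.031 and 0.237. The S_12h libraries lay on the side of line A, at 0.833 to 0.861 in replicates 1 and 2 and at 1.08 and 1.09 in replicate 3. In 153 of the 162 higher genes all S_12h libraries were above all WT_12h libraries, and in 270 of the 290 lower genes all were below, against 13.6% and 13.3% of all genes. Unlike all genes, members were chosen for groups that did not overlap at 0 h, and S_12h replicate 3 correlated best with A_0h replicates 1 and 2. What these points add to the shares was not tested. The members thus divided the 18 libraries into 9 at or near the WT_0h level, which carry the labels WT_0h, WT_12h and S_0h, and 9 at or near the A_0h level, which carry the labels A_0h, A_12h and S_12h.

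**Figure D4:**
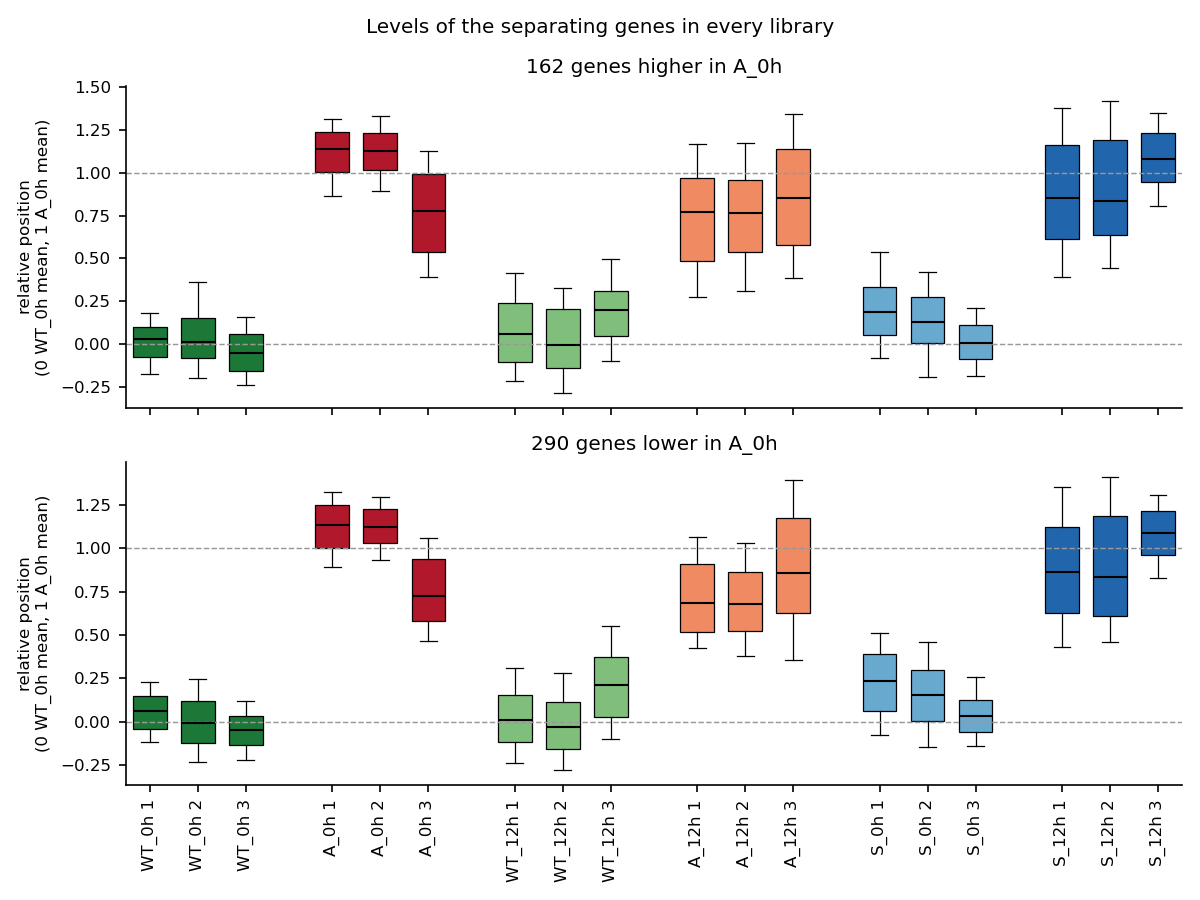
Relative position in log2 CPM of the 162 higher (top) and 290 lower (bottom) members in each library, where 0 is the WT_0h mean and 1 the A_0h mean of the gene; boxes span percentiles 25 to 75 with the median, whiskers 10 to 90. The 9 libraries labelled WT_0h, WT_12h and S_0h have medians up to 0.237, and the 9 labelled A_0h, A_12h and S_12h have medians from 0.68.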

How the data were processed

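The authors deposited 1 table of whole-number read counts per gene, not normalised, with a column for each of the 18 libraries, and each column name equalled a library title. HISAT2, featureCounts and the B73 RefGen_v4 build are named in the submitters' processing notes. Their versions, the strand setting and the handling of multiply mapped reads were not stated, so near-identical, overlapping and antisense genes are uncertain.

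Counts were analysed with edgeR 4.0.16 in R 4.3.3: filterByExpr by group, TMM scaling, 1 mean per group over all 18 libraries, a robust quasi-likelihood fit (residual degrees of freedom 12, and 10 without the 2 libraries), Benjamini-Hochberg adjustment over all genes tested. The SE is the log2 fold change divided by the square root of F. Named IDs were the 2 most abundant members per direction with a change of at least 2-fold in both versions. Alternatives used DESeq2 1.42.0 and limma 3.58.1. The procedure was run on simulated counts, with 1 mean per gene over all libraries apart from planted changes between A_0h and WT_0h. No simulated library was made to resemble another group, so that run cannot show how the calls behave in these data. No pair of libraries within A_0h or WT_0h agreed within sampling noise (lowest chi-square per gene 4.54). The 6 libraries held 57052158 to 80104447 counts. The members and lists were chosen with earlier results of these data known. Gene lists fixed by symbol could not be matched and were not used.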

Additional observations from a re-analysis of the deposited data

Results flagged for a closer look

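The S_12h libraries were on neither side of the contrasts of line A against WT, although they shared in the estimate of the spread. The summed level of the 162 genes higher in A_0h was above that of every WT library there: it was 7828 CPM in S_12h replicate 1, 7971 CPM in replicate 2 and 8657 CPM in replicate 3, whereas the highest of the 6 WT libraries held 5015 CPM. The 3 S_0h libraries held 4632 to 4997 CPM.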

How the results depend on the processing

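The number of genes called between line A and WT at 0 h (696) was 2038 without A_0h replicate 3 and WT_0h replicate 2, 2328 by DESeq2, 33 with A_0h and WT_0h alone in the fit, 10351 without the library of each group nearest to another group, and 159 to 3083 when 1 library was left out. Without those 2 libraries (2038) it was 3560 by DESeq2, 10065 with A_0h and WT_0h alone, and 10 to 187 when 1 more library was left out. The number of abundant genes that separated the groups (452) was 1021, 28 and 6878 by DESeq2, with A_0h and WT_0h alone and without the library of each group nearest to another group, and 7 to 1301 with 1 library left out. A group left with 1 library was assumed to vary like the others. The test of the difference between 12 h and 0 h (0 genes) gave 16 by DESeq2 and 10055 without the library of each group nearest to another group. The cause of these shifts was not tested. The total counts stayed within 1.5 times under limma-voom, although its higher and lower genes without the 2 libraries were 1672 and 1253 against 768 and 1270, and also under RLE scaling, both alternative filters and, for the 452, thresholds of 5 CPM (502) and 20 CPM (364). None of the 4 named IDs changed sign under any setting. Between A_0h and WT_0h, libraries of equal replicate number had deviations from the group means that correlated at -0.007, -0.001 and -0.019. No A_0h library correlated best with its own number. In these 2 groups the libraries that stood apart carry different numbers, so this check cannot decide whether replicate numbers pair samples. Across the series, all libraries with both nearest libraries in another group carry replicate number 3, except WT_0h replicate 2. With the replicate number as a block the 3 counts above were 285, 1936 and 205, the difference test stayed at 0, and Zm00001d034771.RefGen_V4 was not called (adjusted p = 0.0872).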
